A study of Rattus norvegicus with 12 samples.

Results

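The genes described here handle lactate and pyruvate, the end products of glycolysis: 2 lactate dehydrogenases (Ldha and Ldhb), 3 monocarboxylate transporters (Slc16a1, Slc16a3 and Slc16a7), 4 pyruvate dehydrogenase kinases (Pdk1 to Pdk4) and the mitochondrial pyruvate carrier subunit Mpc1. They were chosen by name and function, with earlier results of these data known, and every probe set whose only gene symbol was one of the 10 names was taken. This gave 15 of the 31099 probe sets on the array and 10 of the 14218 genes with a symbol of their own. CRI-G1 is an insulin-secreting cell line from a rat islet tumour. CRI-G1-RR is its original, rotenone-resistant clone, and CRI-G1-RS is a rotenone-sensitive subclone that arose from it in prolonged culture. Total RNA of 6 samples of each line, from different passages of untreated cells grown in high-glucose DMEM with sodium pyruvate and serum, was hybridized to 12 Affymetrix rat expression arrays. The comparison asks how the rotenone-sensitive subclone differs in gene expression from the clone it came from. Each line is a single clone, so the p-values cover the spread between passages of these clones and not between independent subclones.

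Lactate dehydrogenase is a tetramer that interconverts pyruvate and lactate together with NADH and NAD+, and its A and B subunits are known for favouring lactate formation and lactate use, respectively. Pyruvate that is not reduced enters mitochondria through the pyruvate carrier and is oxidised by the pyruvate dehydrogenase complex, which the Pdk kinases switch off by phosphorylation. Normal pancreatic β cells are known for very low levels of Ldha and of the plasma membrane lactate and pyruvate transporter Slc16a1 (MCT1), so that glucose carbon goes to mitochondria and circulating lactate and pyruvate do not trigger insulin release.

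The signals were scaled to a trimmed mean of 250.1 on every array, and pairs of arrays correlated at 0.980 to 0.987 within RR cells, 0.979 to 0.987 within RS cells and 0.952 to 0.965 between the lines. Of 7 measured β cell markers, 4 were called higher in RS cells (Ins2, Pdx1, Nkx6-1 and Mafa) and 1 lower, where 21.0% and 18.3% of all genes were called in these directions. Iapp (log2 fold change 0.28, limma adjusted p = 0.0992) and Ins1 (-0.06, limma adjusted p = 0.408) did not pass the test. Ins1 was bright, with means of 7118 in RR and 6495 in RS cells. The paper, with its own processing of the arrays and by qRT-PCR, reports Ins1 as higher in RS cells. The lower marker, Slc2a2 (the glucose transporter GLUT2), had signals of 1.8 to 20.8 in RR and 1.42 to 2.25 in RS cells, under the 25th percentile of the arrays (23.3), where a change could hardly be measured. The glucagon gene Gcg was also bright in both lines, with mean signals of 7329 in RR and 6589 in RS cells, and none of 3 measured α and δ cell markers passed the test. None of 6 acinar markers passed it either, and their summed signal lay between 99.3 and 155 on RR arrays and between 64.7 and 122 on RS arrays. The same held for 5 fibroblast markers, with summed signals of 166 to 207 and 176 to 222. No array shared its values with another.

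Signals of different probe sets are not on a common scale, so each comparison is of 1 probe set between the lines. Counted by the probe set with the highest mean signal, 2 of the 10 genes were higher in RS cells (Ldhb and Pdk3), 3 were lower (Ldha, Slc16a1 and Slc16a7) and 5 did not pass the test (limma, Benjamini-Hochberg adjusted p under 0.05 over all probe sets). Over all 14218 genes, 21.0% were called higher, 18.3% lower and 39.2% in either direction, so the 5 calls among 10 genes are a share near the background. The arrays of the lines did not overlap for 3 of the 10 genes (Ldhb, Slc16a1 and Slc16a7), against 27.2% of all genes. The median log2 fold change was 0.04 for the 10 genes and 0.02 for all genes. The members differed widely in the size of change, from -2.06 for Slc16a7 to 1.75 for Ldhb. A positive log2 fold change means a higher signal in RS cells on the log2(signal + 16) scale, which shrinks the changes of dim genes. By probe set, 2 of 15 were called higher and 3 lower, where 31.7% of all probe sets were called in either direction, and the lines did not overlap for 3 of 15, where 20.3% of all probe sets had no overlap. In bulk samples such as these, fewer cells expressing a gene and less RNA per cell cannot be told apart.

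**Figure D1:**
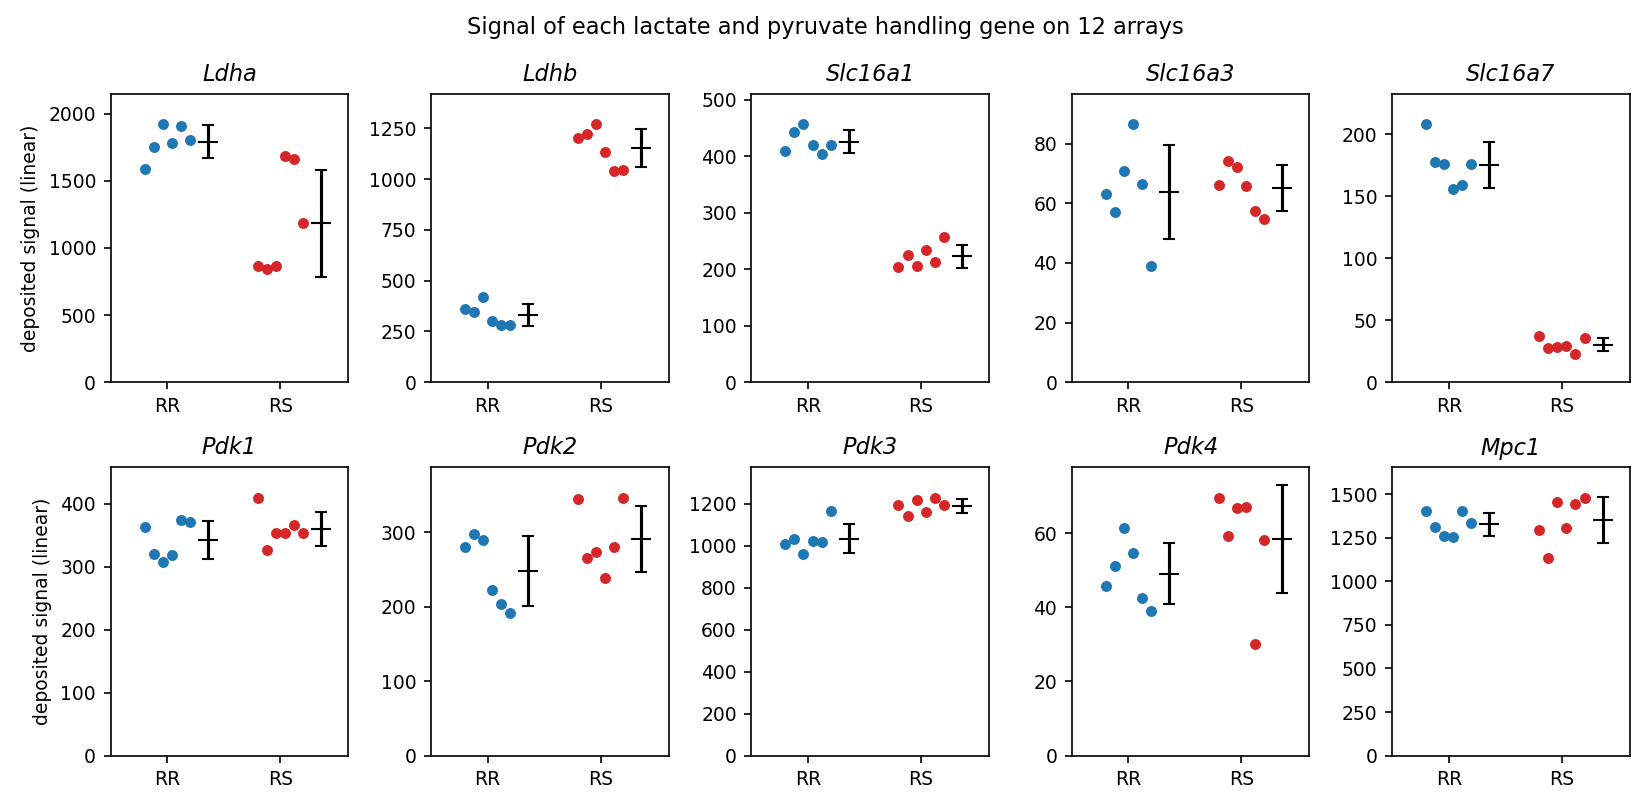
Deposited signal (linear, vertical axes starting at 0) of the highest-signal probe set of each gene on every array, with RR arrays in blue and RS arrays in red in the order of their replicate numbers, and the mean with its SD (n = 6) in black. Ldhb, Slc16a1 and Slc16a7 separate the lines, and the RS arrays of Ldha spread from 843 to 1684.

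The lactate dehydrogenase subunits changed in opposite directions. Ldhb, the subunit of heart-type lactate dehydrogenase, rose in RS cells to 3.47 times its mean signal in RR cells. Ldha, the subunit of muscle-type lactate dehydrogenase, fell in RS cells, but by an amount that differed between RS samples. The 250 bases before the start of each gene are printed here because the genes moved apart. Capitals mark the letters ACGTG in either reading direction (CACGT on the other strand). ACGTG is a form of the core of the element bound by hypoxia-inducible factors, and the form GCGTG was not searched for. The sequences are from RefSeq on GRCr8, in the direction of transcription, from chr1:106507842-106508091 on the plus strand for Ldha and chr4:177177409-177177658 on the minus strand for Ldhb.
Ldha: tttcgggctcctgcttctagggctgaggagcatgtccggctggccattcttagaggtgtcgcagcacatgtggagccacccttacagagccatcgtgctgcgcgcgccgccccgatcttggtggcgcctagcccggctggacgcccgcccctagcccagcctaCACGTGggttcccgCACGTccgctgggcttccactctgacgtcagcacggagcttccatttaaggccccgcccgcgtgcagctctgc
Ldhb: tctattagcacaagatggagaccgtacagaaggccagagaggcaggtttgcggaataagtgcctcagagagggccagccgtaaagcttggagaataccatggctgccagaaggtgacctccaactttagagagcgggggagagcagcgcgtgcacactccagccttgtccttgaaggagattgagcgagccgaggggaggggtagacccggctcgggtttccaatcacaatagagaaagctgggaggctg

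In the Ldha window ACGTG or its complement began 87, 86 and 73 bases before the start, the first pair being the overlapping letters of 1 palindrome, CACGTG. The window also held TGACGTCA, the letters of the cyclic AMP response element, 51 bases before the start, and GGGCGG, a GC box, on the other strand. The Ldhb window held none of these 4 motifs. Of 33469 RefSeq promoter windows of the same length, 16.6% held ACGTG, 5.59% CACGTG, 1.59% TGACGTCA and 30.5% GGGCGG on either strand. These matches describe the letters in the windows, and no binding was measured.

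Ldhb (probe set 1370218_at) had signals from 282 to 421, with a median of 324, on the RR arrays and from 1042 to 1269, with a median of 1168, on the RS arrays. Every RS array lay above every RR array. The means were 332 ± 53.9 and 1152 ± 94 (SD, n = 6 each), and the log2 fold change was 1.75 with a standard error of 0.10 (95% interval 1.54 to 1.96, limma adjusted p = 4.38e-08). An increase of at least 2-fold on this scale was found for 2.36% of all genes. Within RR cells replicates 1 to 3 averaged 375 ± 39.8 and replicates 4 to 6 averaged 289 ± 11.6 (SD, n = 3 each), and in RS cells the corresponding means were 1230.2 ± 35.2 and 1075 ± 52, so that both lines were lower in replicates 4 to 6 while the difference between them stayed at 1.66 and 1.83.

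Ldha (probe set 1367586_at) had signals of 1586, 1755, 1920.2, 1779, 1909 and 1802 on RR replicates 1 to 6. On RS replicates 1 to 6 the signals were 862, 843, 863, 1684, 1661 and 1187. RS replicates 1 to 3 were low and almost equal, whereas replicates 4 and 5 lay within the range of RR cells, and the groups overlapped. The coefficient of variation was 6.79% in RR and 33.8% in RS cells. The means were 1792 ± 122 and 1183 ± 400.2 (SD, n = 6 each), and the log2 fold change was -0.65 with a standard error of 0.18 (95% interval -1.04 to -0.26, limma adjusted p = 0.0144). The fold change was -1.03 within replicates 1 to 3 of both lines (limma adjusted p = 0.00151) and -0.26 within replicates 4 to 6 (limma adjusted p = 0.314). It also missed the threshold when RR replicates 1 to 3 or 4 to 6 alone were set against all RS arrays, with values of -0.63 and -0.66.

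The difference Ldhb minus Ldha, taken on each array from normalized log2 values, was -2.37 ± 0.22 in RR and 0.03 ± 0.57 in RS cells (SD, n = 6 each). It was 2.40 higher in RS cells by an exact two-sided permutation test (p = 0.00216, the smallest that 6 arrays against 6 allow, and 0.00289 adjusted over 4 pairs of related genes). In RR cells it ran from -2.66 to -2.12 and in RS cells from -0.67 to 0.54, so the ranges did not overlap although those of Ldha did. This tests unequal change of the subunits and does not compare their amounts.

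**Figure D2:**
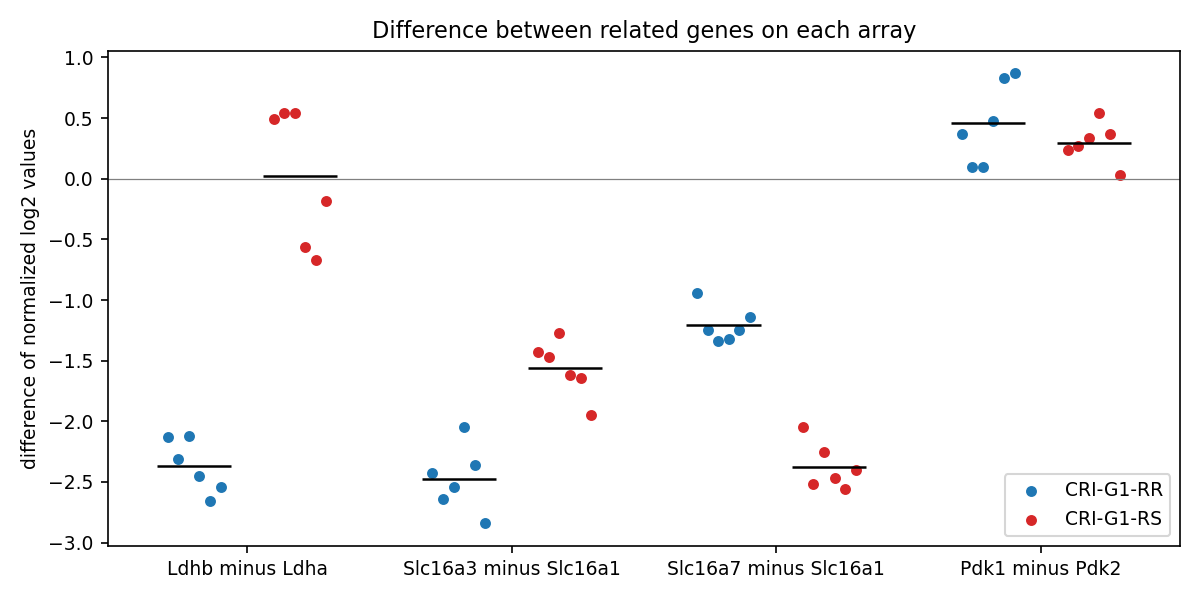
Difference between the normalized log2 values of related genes on each array (vertical axis, log2 units), RR in blue and RS in red, with the group mean as a black line. The lines do not overlap for the first 3 pairs, with shifts of 2.40, 0.91 and -1.17, and overlap for Pdk1 minus Pdk2.

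The monocarboxylate transporters, which carry lactate, pyruvate and ketone bodies with a proton across membranes, differed among themselves. Slc16a1 (MCT1) and Slc16a7 (MCT2, a high-affinity carrier) fell in RS cells, and Slc16a3 (MCT4, the low-affinity carrier of strongly glycolytic cells) did not pass the test. The windows of the pair that fell are printed with the same capitals, from chr2:194812410-194812659 on the plus strand for Slc16a1 and chr7:63040399-63040648 on the minus strand for Slc16a7 (RefSeq, GRCr8). Both windows lie inside the annotated span of their gene, before the transcript start that the table uses.
Slc16a1: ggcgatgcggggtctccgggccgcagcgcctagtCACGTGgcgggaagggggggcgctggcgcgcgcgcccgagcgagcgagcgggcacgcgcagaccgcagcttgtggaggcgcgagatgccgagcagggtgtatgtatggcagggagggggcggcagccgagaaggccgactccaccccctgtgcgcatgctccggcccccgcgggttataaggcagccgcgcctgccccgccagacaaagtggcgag
Slc16a7: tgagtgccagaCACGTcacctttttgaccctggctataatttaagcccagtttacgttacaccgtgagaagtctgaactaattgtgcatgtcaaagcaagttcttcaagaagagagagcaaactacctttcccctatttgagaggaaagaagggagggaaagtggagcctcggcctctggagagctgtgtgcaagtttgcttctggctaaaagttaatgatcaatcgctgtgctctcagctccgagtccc

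The Slc16a1 window held CACGTG 216 bases before the start and GGGCGG 100 bases before it, and the Slc16a7 window held CACGT at 239 bases. Among all 10 genes, ACGTG was present in 5 windows (Ldha, Slc16a1, Slc16a7, Pdk2 and Pdk3), CACGTG in 3, TGACGTCA in that of Ldha alone and GGGCGG in 6. Genes with ACGTG included 3 that were lower, 1 that was higher and 1 that did not pass the test.

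Slc16a7 (probe set 1370609_a_at) had the largest change among the 10 genes. Its signals ran from 156 to 208, with a median of 176, on RR arrays and from 22.9 to 37.1, with a median of 28.9, on RS arrays. The lines were far apart on every array. The means were 175 ± 18.4 and 30.1 ± 5.32 (SD, n = 6 each), 5.82 times higher in RR cells, and the log2 fold change was -2.06 with a standard error of 0.09 (95% interval -2.25 to -1.88, limma adjusted p = 3.61e-09). A decrease of at least 2-fold on this scale was found for 2.49% of all genes. The RS signals lay near the 25th percentile of the arrays (23.3), so the size of the change is less certain than its direction. With a pseudocount of 1 in place of 16 the log2 fold change was -2.53. Slc16a7 lies on chromosome 7 among genes that were also mostly lower: of the 50 nearest neighbours whose mean signal reached 100, 35 were lower and 5 higher in RS cells, with a median log2 fold change of -0.63. For the members other than Slc16a7 and Slc16a1, the same count gave 4 to 10 lower and 11 to 21 higher. The share among all genes of such a signal was not computed. The part of the neighbourhood in the change of Slc16a7 was not tested.

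Slc16a1 (probe set 1386981_at) had signals from 404 to 456, with a median of 419, on RR arrays and from 203 to 257, with a median of 219, on RS arrays. The groups did not overlap. The means were 425 ± 20.5 and 223 ± 20.2 (SD, n = 6 each), and the log2 fold change was -0.89 with a standard error of 0.07 (95% interval -1.04 to -0.75, limma adjusted p = 3.92e-07). Its chromosomal surroundings moved the other way: of its 50 nearest neighbours on chromosome 2 with a mean signal of at least 100, 37 were higher and 3 lower, with a median of 0.43. Around the members other than Slc16a1 and Slc16a7, 11 to 21 neighbours were higher and 4 to 10 lower. A second probe set, 1380467_at, had signals between 1.79 and 6.48 on all arrays, where a change could hardly be measured, and its log2 fold change was 0.00 (limma adjusted p = 0.995).

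Slc16a3 (probe set 1368965_at) had signals from 38.9 to 86.5, with a median of 64.8, on RR arrays and from 54.8 to 74.1, with a median of 66.1, on RS arrays. The range of RS cells lay inside that of RR cells. The log2 fold change was 0.02 (95% interval -0.24 to 0.27, limma adjusted p = 0.936). Relative to Slc16a1, Slc16a3 was 0.91 higher in RS cells and Slc16a7 was 1.17 lower (-1.17), and each difference had an exact permutation p of 0.00216 (0.00289 adjusted over the 4 pairs). The transporters therefore changed unequally beyond the spread between arrays.

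**Figure D3:**
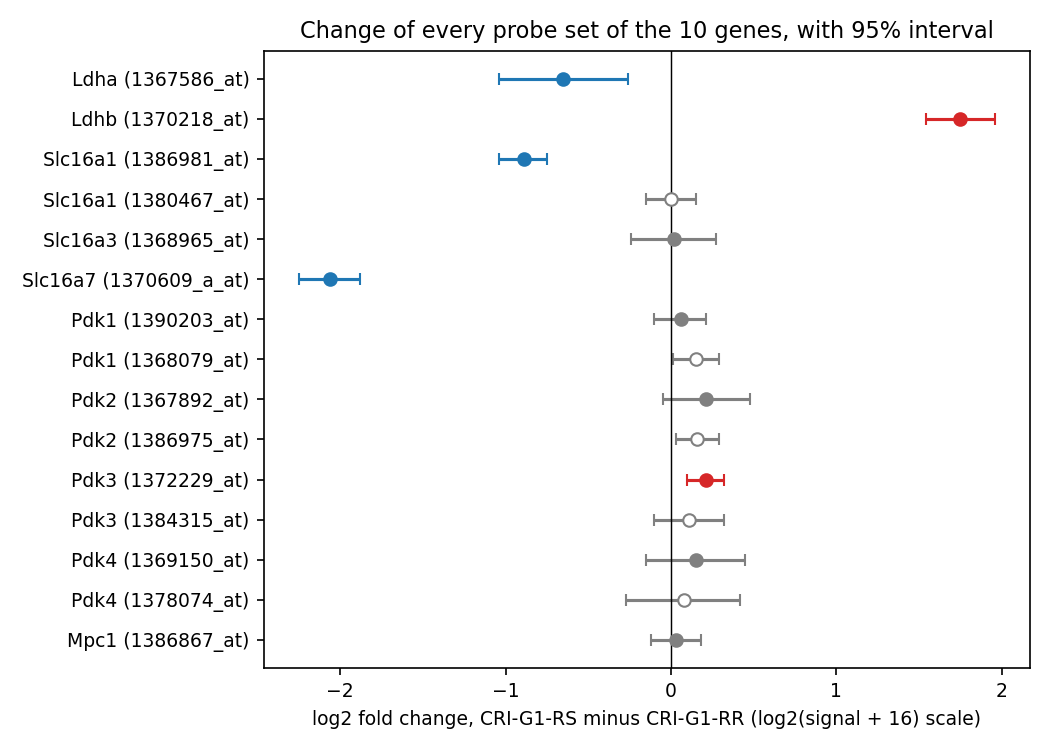
Log2 fold change of RS over RR cells (horizontal axis, log2(signal + 16) scale) for all 15 probe sets, with 95% intervals from limma, filled for the highest-signal probe set of a gene and open for the other, red where higher, blue where lower and grey where the test was not passed. Slc16a7 at -2.06 and Ldhb at 1.75 lie at the ends, and the kinases and Mpc1 lie between 0.03 and 0.21.

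The pyruvate dehydrogenase kinases, which phosphorylate and inactivate the E1 subunit of the complex, moved little. Pdk3 was the only kinase that passed the test, and it rose in RS cells by 0.21 on the log2 scale. Its probe set 1372229_at had signals from 959 to 1164, with a median of 1021, on RR arrays and from 1143 to 1228, with a median of 1195, on RS arrays. The groups overlapped through 1 array, RR replicate 6 at 1164, while the other 5 RR arrays lay below all RS arrays. The means were 1034 ± 68.5 and 1190.1 ± 32.4 (SD, n = 6 each), and the log2 fold change had a standard error of 0.05 (95% interval 0.10 to 0.32, limma adjusted p = 0.00665). It no longer passed with median centring in place of quantile normalization (0.18, limma adjusted p = 0.0948), against RR replicates 4 to 6 alone (0.17, 0.0883), or within replicates 1 to 3 (0.23, 0.109) or 4 to 6 (0.18, 0.205) of both lines. The second probe set, 1384315_at, gave 0.11 (limma adjusted p = 0.442).

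Pdk1, the kinase known as a target of hypoxia-inducible factors, had mean signals of 343 ± 30.4 in RR and 361 ± 27.4 in RS cells by 1390203_at (SD, n = 6 each), a log2 fold change of 0.06 (95% interval -0.10 to 0.21, limma adjusted p = 0.612). By 1368079_at the means were 237 ± 22.5 and 266 ± 10.7, and the change was 0.15 (limma adjusted p = 0.112). Neither probe set passed the test, and both changes were above 0.

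Pdk2, the most widely expressed of these kinases, split within RR cells. Its probe set 1367892_at had signals of 280.2, 298 and 289 on RR replicates 1 to 3 and of 222, 204 and 192 on replicates 4 to 6. Such a split was not particular to Pdk2: 8.89% of all 14218 genes had RR replicates 4 to 6 all below 1 to 3, Ldhb among them. The RS signals ran from 238 to 346, with a median of 277, and averaged 295 ± 44 in replicates 1 to 3 and 288 ± 54.2 in replicates 4 to 6 (SD, n = 3 each). RS cells thus lay around the first set of RR arrays and above the second. Over all arrays the log2 fold change was 0.21 (95% interval -0.05 to 0.48, limma adjusted p = 0.226), and against RR replicates 4 to 6 alone it was 0.43 (limma adjusted p = 0.0306). The other Pdk2 probe set, 1386975_at, had signals between 7.32 and 16.5 and a change of 0.16 (limma adjusted p = 0.0564), which passed with a pseudocount of 1 (0.34, limma adjusted p = 0.0265) and without RS replicate 1 (0.19, limma adjusted p = 0.0273). The difference Pdk1 minus Pdk2 was 0.46 ± 0.34 in RR and 0.30 ± 0.17 in RS cells (SD, n = 6 each, exact permutation p = 0.318).

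Pdk4, the kinase induced by fasting and fatty acids in many tissues, was dim, with means of 49 ± 8.27 in RR and 58.5 ± 14.6 in RS cells by 1369150_at (SD, n = 6 each). The log2 fold change was 0.15 (limma adjusted p = 0.481), and without RS replicate 5, which stood low at 30.1, it was 0.28 (limma adjusted p = 0.0231). The second probe set, 1378074_at, had signals between 9.21 and 33.8 and a change of 0.08 (limma adjusted p = 0.782).

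Mpc1, which forms the mitochondrial pyruvate carrier together with Mpc2, had signals from 1253 to 1405, with a median of 1322, on RR arrays and from 1134 to 1478, with a median of 1373, on RS arrays (probe set 1386867_at). The RR range lay inside the RS range. The log2 fold change was 0.03 (95% interval -0.12 to 0.18, limma adjusted p = 0.815). Its partner Mpc2, by contrast, fell from a mean of 3284 ± 108 to 2441 ± 110.3 (SD, n = 6 each), a log2 fold change of -0.39 (limma adjusted p = 3.85e-05) with no overlap between the lines. Whether the subunits differed in their change was not tested.

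Other genes of lactate and pyruvate metabolism were counted in fixed lists. Among 9 measured transport partners and relatives, none was higher and 2 were lower, against 21.0% and 18.3% of all genes. The lower genes were Mpc2 and Slc16a13, an MCT family member (log2 fold change -0.51, limma adjusted p = 7.38e-04), and the list median was -0.05. The chaperones of the transporters, Bsg (basigin) and Emb (embigin), had changes of 0.06 and 0.13 and did not pass the test.

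Of 7 measured genes of the pyruvate dehydrogenase complex and its phosphatases, 3 were called higher in RS cells and none lower, against 21.0% and 18.3% of all genes, and none passed within replicates 1 to 3 of both lines. Pdha1 and Pdhb, the subunits of the E1 component, rose by 0.30 (limma adjusted p = 7.51e-04) and 0.37 (limma adjusted p = 2.58e-04). Pdp1, a phosphatase that reactivates the complex, rose by 0.43 (limma adjusted p = 7.83e-04). The arrays of the lines did not overlap for these 3 genes, as for 27.2% of all genes, and the list median was 0.30 beside 0.02 for all genes.

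Among 8 other enzymes that make or use pyruvate, 1 was higher and 2 were lower, against 21.0% and 18.3% of all genes. Pc, pyruvate carboxylase, which makes oxaloacetate, rose by 0.40 (limma adjusted p = 9.00e-04), from a mean signal of 59.8 ± 3.16 to 85.8 ± 10.4 (SD, n = 6 each). Gpt and Gpt2, the cytosolic and mitochondrial alanine transaminases, fell by 0.47 and 0.36 with overlapping groups (limma adjusted p = 0.0284 and 0.0322), and the calls were near the threshold. No gene of the list was lower without RR replicate 1, 4 or 6 or without RS replicate 3 or 5, and 1 was lower without RR replicate 2 or RS replicate 6. The list median was 0.03.

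The NADH shuttles, which carry cytosolic NADH equivalents into mitochondria as an alternative to lactate formation, had 7 of 9 genes called higher and none lower, with a median of 0.27, where 21.0% of all genes were called higher. The count was 5 with the deposited scaling alone, with median centring and with either set of 3 RR arrays, and 3 and 2 within replicates 1 to 3 and 4 to 6 of both lines. Got1, the cytosolic aspartate transaminase, rose most, from a mean of 204 ± 23.6 to 489 ± 43.3 (SD, n = 6 each, log2 fold change 1.19, limma adjusted p = 2.76e-07). Gpd2, the mitochondrial glycerol phosphate dehydrogenase, rose by 0.56 (limma adjusted p = 2.21e-05) and Got2, the mitochondrial aspartate transaminase, by 0.35 (limma adjusted p = 0.0043). Mdh1, the cytosolic malate dehydrogenase, counted among the 7 by its brightest probe set, which changed by 0.26, but its probe set 1372790_at gave -0.91 (limma adjusted p = 5.54e-06), so its direction is uncertain.

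**Figure D4:**
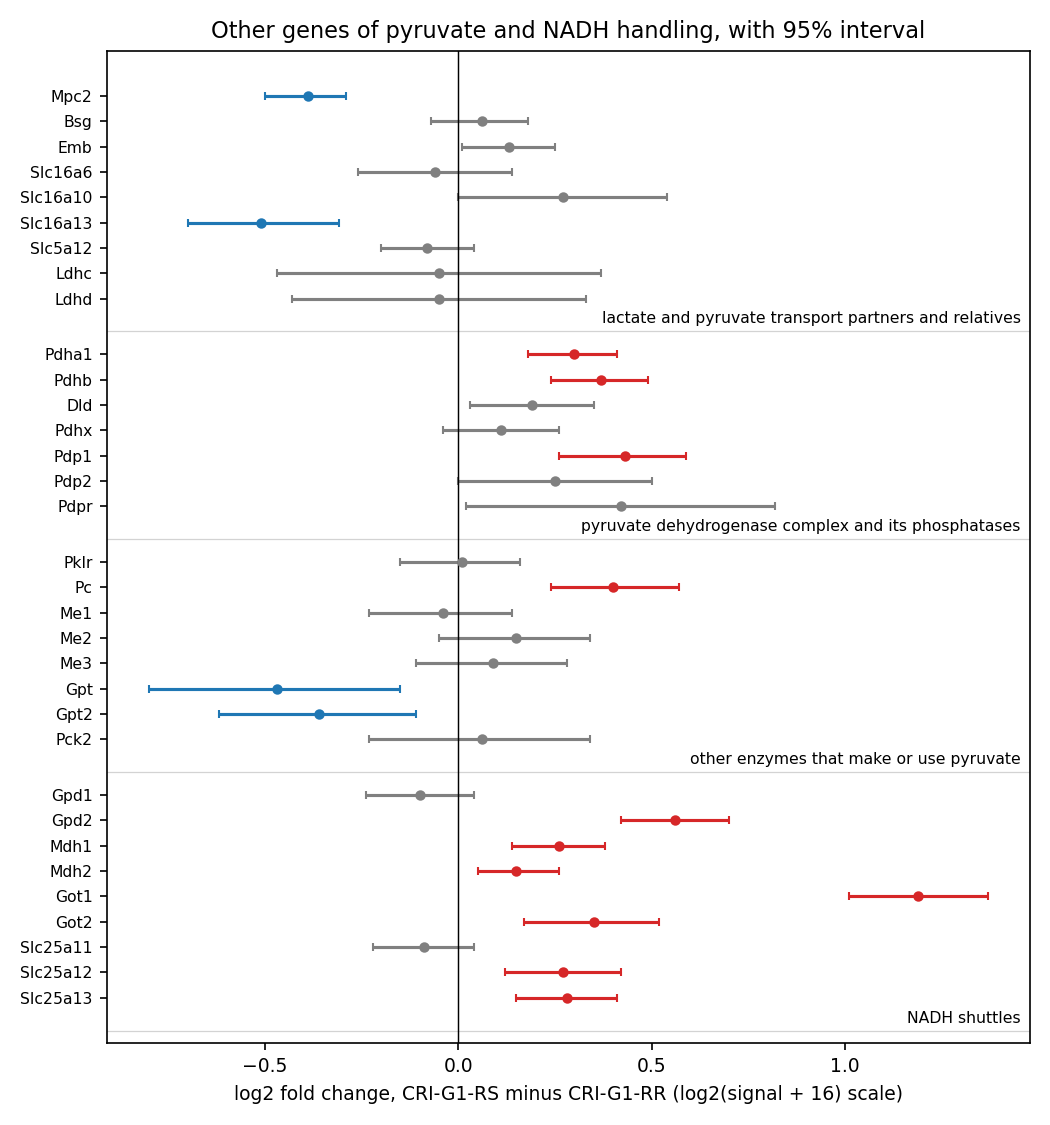
Log2 fold change of RS over RR cells (horizontal axis, log2(signal + 16) scale) with 95% intervals from limma for the highest-signal probe set of each gene in 4 lists, red where higher, blue where lower and grey where the test was not passed. Of the NADH shuttle genes 7 of 9 are red, led by Got1 at 1.19, and of the pyruvate dehydrogenase genes 3 of 7.

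Of 18 genes of the hypoxia response, to which Ldha and Pdk1 are commonly assigned, 3 were called higher in RS cells and 3 lower, against 21.0% and 18.3% of all genes, and the median was 0.02. Within replicates 1 to 3 of both lines 1 was higher and 2 were lower. Within replicates 4 to 6 of both lines the counts were 3 higher and 1 lower. Epas1 (HIF-2α) rose by 0.88, Ankrd37 by 0.63 and the collagen prolyl hydroxylase P4ha1 by 0.57, while the mitophagy receptor Bnip3 (-0.49), the stress-responsive Ndrg1 (-0.34) and the carbonic anhydrase Car9 (-0.33) fell, with limma adjusted p-values between 2.56e-05 and 0.015. Hif1a itself had a change of 0.02 (limma adjusted p = 0.827). The called Epas1 probe set was itself dim, with means of 28.8 ± 8.32 in RR and 66.7 ± 9.98 in RS cells (SD, n = 6 each). A second, dimmer Epas1 probe set gave 0.19 (limma adjusted p = 0.719). On RS replicates 1 to 6 the P4ha1 signals were 687, 719, 713, 1199, 999 and 802. The Bnip3 signals on the same arrays were 691, 513, 602, 964, 828 and 750.2. Both genes were higher on each of RS replicates 4 to 6 than on each of replicates 1 to 3, as Ldha was, and so was Ankrd37, with 149.5, 101 and 116 against 245, 180.4 and 194. These were picked after the signals had been seen: 5 of the 18 genes (Egln3, Bnip3, Ankrd37, P4ha1 and Slc2a1) had RS replicates 4 to 6 all above 1 to 3, none had them all below, and 13 did neither, Hif1a and Hk2 among them. Over all 14218 genes, 5.12% had RS replicates 4 to 6 above and 5.54% below, Dbi, no gene of the list, being among those above.

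In RR cells the P4ha1 signals ran from 472 to 685 and those of Bnip3 from 927 to 1099.8, and replicates 4 to 6 lay above 1 to 3 for Bnip3 but overlapped for P4ha1 and Ldha. In RR cells 2 of the 18 genes had replicates 4 to 6 above and 1 had them below, against 7.05% and 8.89% of all genes. Correlations of Ldha with the 18 genes were computed within each line, 36 in all, after the arrays had been seen, and none passed an adjusted p of 0.05 (lowest 0.219, exact permutation over pairings). With 6 arrays this permutation test cannot give a p below 0.00139, so no correlation could have passed on its own after adjustment over 36. The lack of a call therefore does not show that the genes were unrelated. At an unadjusted p under 0.05 there were 4 in each line. The RS arrays lie in separate sets for Ldha, so no single correlation is quoted. Of 8 relations of Ldha with Ldhb, Slc16a1, Slc16a3 and Pdk1 none passed either (lowest adjusted p = 0.711, exact permutation).

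**Figure D5:**
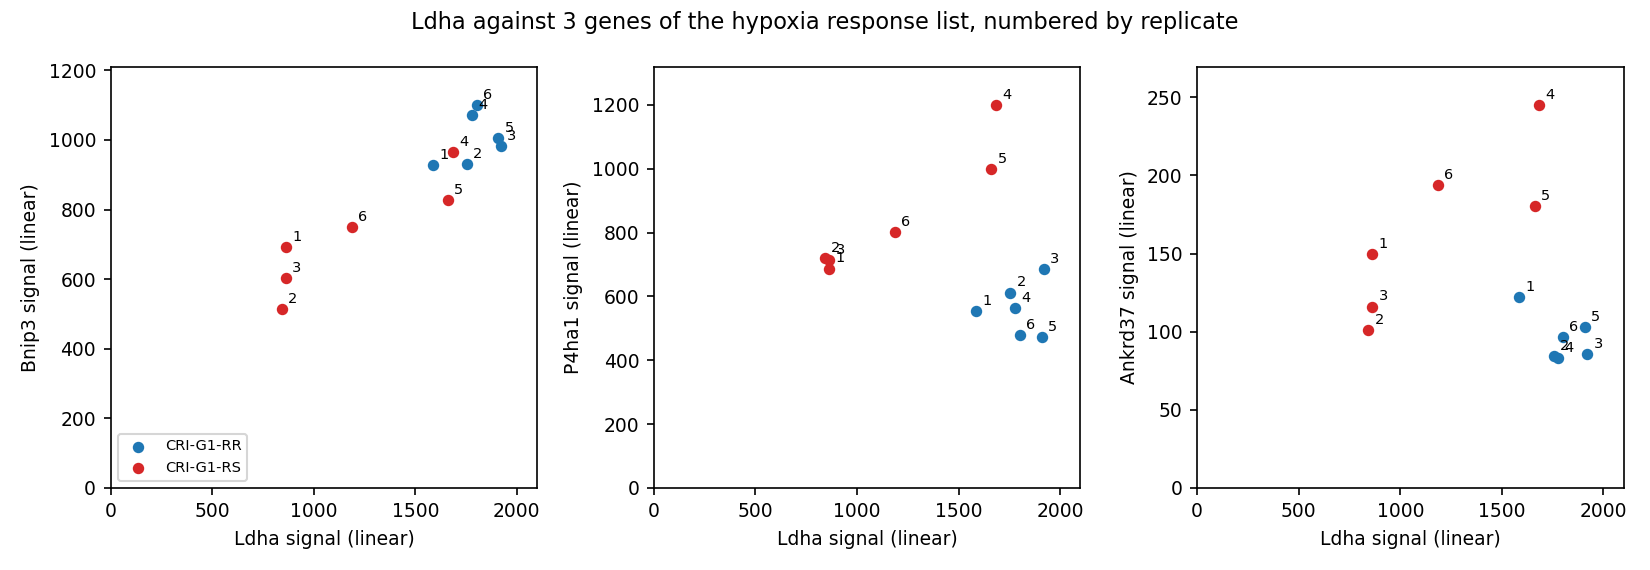
Deposited signal of Ldha (horizontal axes, linear) against Bnip3, P4ha1 and Ankrd37 (vertical axes, linear, from 0) on each array, RR in blue and RS in red, numbered by replicate. RS replicates 4 to 6 lie above and to the right of RS replicates 1 to 3 in each panel, while RR arrays stay between 1586 and 1920.2 for Ldha.

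Ldha and Slc16a1 are known as genes that mature β cells keep low, and 10 other measured genes of this kind were counted. In RS cells 4 were called higher and 3 lower, against 21.0% and 18.3% of all genes, with a median of 0.21, and within replicates 1 to 3 of both lines the counts were 0 and 1. Maf rose by 0.81, Pdgfra, a growth factor receptor, by 0.74 and the chemokine Cxcl12 by 0.54, while Igfbp4, an insulin-like growth factor binding protein, changed by -1.24, the acyl-CoA thioesterase Acot7 by -0.61 and the signal transducer Smad3 by -0.47 (limma adjusted p between 9.26e-06 and 0.0493). Other, dimmer probe sets did not pass for Maf (-0.09 and 0.01), Cxcl12 (0.27 and -0.13) and Acot7 (0.08). The calls of these genes therefore rest on their brightest probe set alone. That of Maf was itself dim, with means of 34.4 ± 13 in RR and 72.3 ± 12.2 in RS cells (SD, n = 6 each).

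Over the 12 arrays, the genes whose normalized log2 values followed Ldha most closely among the 8683 genes whose mean signal reached 100 were Bnip3 (Pearson r = 0.936), the acyl-CoA binding protein gene Dbi (0.932) and the acetyltransferase gene Kat2b (0.928). For Ldhb they were Fam117a (0.996), C1h9orf40 (0.995) and Emc2 (0.993). These coefficients are descriptions over arrays of 2 lines and include the difference between the lines.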

How the data were processed

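The data are 12 arrays, 6 for each of the 2 cell lines. The values that the authors deposited are linear signal intensities per probe set, scaled to a common trimmed mean, and GCOS 1.4 is the program in the submitters' processing notes. The Methods describe log2 values of robust multi-chip averaging, and the deposited values are not these. After quantile normalization, log2(signal + 16) was fitted with limma 3.58.1 in R 4.3.3, the cell line being the single variable. Benjamini-Hochberg adjustment ran over all 31099 probe sets, the threshold was 0.05, and dim probe sets were kept. Means, SDs, ranges and overlap are of the deposited signals. Since arrays hold no counts, precision depends on how many there are. Names came from the platform annotation: 20832 probe sets had 1 symbol, 436 several and 9831 none, and only the first kind was used. Genes were counted by their brightest probe set (highest mean over the 12 arrays), and every probe set of the 10 genes is reported.

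The members and all lists were chosen with earlier results of these data known. Members are described with every probe set, and of each list the counts and up to 3 called genes in each direction by size of change, or all called genes of a list with 5 or fewer; Bsg, Emb, Hif1a, Mdh1, Gcg and the β cell markers were named after their values were seen. The lists were transport partners and relatives, the pyruvate dehydrogenase complex and its phosphatases, other enzymes of pyruvate, NADH shuttles, hypoxia response, genes held low in β cells, and β cell, α and δ cell, acinar and fibroblast markers. Single values were also compared by exact permutation of 6 arrays against 6. The samples were taken as paired passages, but the labels do not say that replicate numbers give the pairs. Alternatives were other normalization, pseudocount, signal filter, variance trend, array weights, probe set choice, a replicate block, subsets of arrays and leaving out each array, and the subsets of both lines were added after seeing the data. The fit was tested on simulated data. Promoter windows and gene order are from RefSeq (GRCr8), and all 10 genes had a window.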

Additional observations from a re-analysis of the deposited data

Results flagged for a closer look

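In the groups of 6 arrays, 3 of 30 groups (15 probe sets in 2 lines) held an array far from the others, where chance gives about 1 in 20. For Pdk3 (1372229_at), RR replicate 6 was the highest of its line at 1164, and the next array had 1030.1. For Pdk4 (1369150_at), RS replicate 5 was the lowest of its line at 30.1, and the next had 58.1. For the dim Slc16a1 probe set 1380467_at, RR replicate 3 had 6.48 and the next array 3.92.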

How the results depend on the processing

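Of 340 log2 fold changes recomputed under 23 alternatives, 309 kept their direction and their side of the threshold, 7 lost the call, 4 gained one and 20, none of them called, changed sign. The count of lower genes was 3, except for 2, without Ldha, with RR replicates 1 to 3 (-0.63, limma adjusted p = 0.106), RR replicates 4 to 6 (-0.66, 0.088) or replicates 4 to 6 of both lines (-0.26, 0.314). The count of higher genes fell from 2 to 1 with median centring, with replicates 1 to 3 of both lines and with replicates 4 to 6, each time without Pdk3, and was 2 to 3 when single arrays were left out. Against RR replicates 4 to 6 it stayed at 2 because Pdk3 lost its call (0.17) and Pdk2 gained one (0.43). Leaving out 1 array kept Ldha between -0.76 and -0.56. The uncalled values that changed sign were Slc16a1 1380467_at (-0.02 with median centring, -0.04 with a pseudocount of 1, -0.02 with RR replicates 1 to 3, -0.06 with replicates 4 to 6, -0.04 to 0.03 without single arrays), Slc16a3 (-0.01 with RR replicates 4 to 6, -0.12 with replicates 4 to 6 of both lines, -0.06 to 0.10 without single arrays), Pdk1 1390203_at (0.00 with replicates 4 to 6), Pdk4 1378074_at (-0.04 with RR replicates 4 to 6, -0.03 to 0.16 without single arrays) and Mpc1 (-0.05 with replicates 1 to 3). With replicates 1 to 3 or 4 to 6 of both lines the paired gene differences were 2.69 and 2.09 for Ldhb minus Ldha, 1.14 and 0.68 for Slc16a3 minus Slc16a1, and -1.09 and -1.25 for Slc16a7 minus Slc16a1, where an exact p cannot go below 0.1. Without single arrays they were 2.29 to 2.54, 0.84 to 1.00 and -1.23 to -1.12. Pdk1 minus Pdk2 was 0.11 with RR replicates 1 to 3, 0.10 with replicates 1 to 3 of both lines, -0.43 with RR replicates 4 to 6 (exact permutation, adjusted p = 0.0238) and -0.23 to -0.08 without single arrays. List counts that moved by over 1.5 times were, for transport partners, 1 higher with the signal filter, the variance trend or array weights (0 to 1 without single arrays) and 1 lower with the filter or replicates 4 to 6. Pyruvate dehydrogenase genes had 0 higher with replicates 1 to 3 (3 to 4 without single arrays). Other pyruvate enzymes had 0 higher with the filter or replicates 4 to 6, and 1 lower with the filter or RR replicates 1 to 3, 0 with RR replicates 4 to 6 or with either subset of both lines (0 to 2 without single arrays). NADH shuttles had 3 and 2 higher in the subsets of both lines, 5 (within 1.5 times) with the deposited scaling, median centring or either RR subset, and 1 lower with the smallest-p probe set. Hypoxia genes had 1 higher with RR replicates 1 to 3 or replicates 1 to 3 of both lines, and 1 lower with replicates 4 to 6. Genes held low in β cells had 2 higher with RR replicates 1 to 3, and 0 higher and 1 lower with replicates 1 to 3 of both lines. The subsets hold fewer arrays. Other causes were not tested. Same-numbered arrays of the lines had deviations that correlated at -0.06 to 0.08, and 3 of 12 arrays correlated best with their own number, so the numbers were not taken as pairs. The replicate block gave 2 higher and 3 lower genes, with Ldha at -0.65 (limma adjusted p = 0.0207) and Ldhb at 1.75, and changed no call among the members, and 6 in place of 7 NADH shuttle genes were higher.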
